A study of Mus musculus with 6 samples.

Results

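Of the 55681 non-control probes on the array, 2647 (4.75%) carried as their target only the accession of a mouse full-length cDNA clone, written AK followed by digits. They were chosen by that name alone and not by any signal, and stood for 2604 clones, of which 2566 had 1 probe and 38 had more. The study asked what fluorene-9-bisphenol (BHPF), a plastics chemical used in place of bisphenol A and examined for anti-oestrogenic activity, did to gene expression in mice. Female CD-1 mice 24 days old had been gavaged once a day for 3 days with peanut oil alone (control) or with BHPF at 50 mg/kg per day in that oil, and liver, ovary and uterus were taken from both. RNA of 3 mice was pooled for each array, so that each of the 6 groups (control liver, control ovary, control uterus, BHPF liver, BHPF ovary, BHPF uterus) was 1 array of 1 pool. No test of BHPF against control within a tissue was therefore possible, and such differences are given as values with no replicate error.

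Full-length cDNA clones were made by copying messenger RNA from many tissues into DNA from end to end and reading the inserts one by one. Clones that matched a well-described gene were absorbed into a curated RefSeq transcript, whose accession begins with NM, and the remainder kept the clone accession. What remains under AK is known to be a mixture of long noncoding RNAs, alternative ends of known genes, antisense transcripts, rare messages and copies of incompletely spliced RNA. None of the clones was paired with a gene name, a position or a sequence in the tables used here, and 0 of the 2604 clone accessions stood in the RefSeq gene table, so each is described by its accession and its signal. The 26430 probes for NM transcripts, which are mostly protein-coding messages, served as the comparison.

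The unit throughout was the level, the log2 processed intensity minus the 75th percentile of its array, so that a level of 0 equals that percentile and a step of 1 is a 2-fold change. A probe was called well above background by the scanner software's own flag. The 75th percentile of intensity ran from 3292 to 7500 over the 6 arrays, and the lowest intensity well above background from 70.0 to 135. The median SD between spots of one probe was 0.09 to 0.10 on the log2 scale, which covers spotting error only. All arrays were on 1 slide, the control arrays in one row and the BHPF arrays in the other, so position and treatment cannot be told apart. All 6 markers of liver and all 6 of uterus had their highest levels in the labelled tissue, as did 5 of the 6 ovary markers, Foxl2 being higher in liver.

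Values of the uterus carry 2 further facts. In the authors' normalized table, 100% of the values under each uterus heading equalled the scanner values of the other uterus array up to a constant (within 0.001), so every uterus direction below follows the labels of the scanner files and would turn with the headings of that table. The 6 liver markers (Alb, Ttr, Apoa2, Serpina1a, Cyp2e1 and Fgb) were summed off the log2 scale and the log2 of the sum taken, so the brightest count most. This value was 1.02 on the control uterus array and 4.98 on the BHPF uterus array, against 8.08 and 8.01 in liver and 2.02 and 2.39 in ovary. All 6 markers were well above background on every array, and all 6 were higher on the BHPF uterus array than on the control uterus array. Alb, the serum albumin gene, went from -0.92 to 3.36.

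Clone probes were dimmer than NM probes on every array. Their median level was -5.34 in control liver, -4.70 in control ovary and -4.51 in control uterus, and -4.86, -4.74 and -4.38 on the BHPF arrays of the same tissues. The medians of NM probes lay between -1.56 and -1.21 on all 6 arrays. Of the clone probes, 50.7% were well above background in control liver, 63.9% in control ovary and 58.0% in control uterus, against 74.4%, 82.6% and 78.1% of NM probes. On the BHPF arrays the shares of clone probes were 47.8%, 57.1% and 53.3%, each below its control. The floor above which a probe was detected was also higher there, at -4.91 against -5.62 in liver, -5.74 against -6.33 in ovary and -5.07 against -5.80 in uterus. Ovary held the most detected clone probes and liver the fewest under both treatments.

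**Figure D1:**
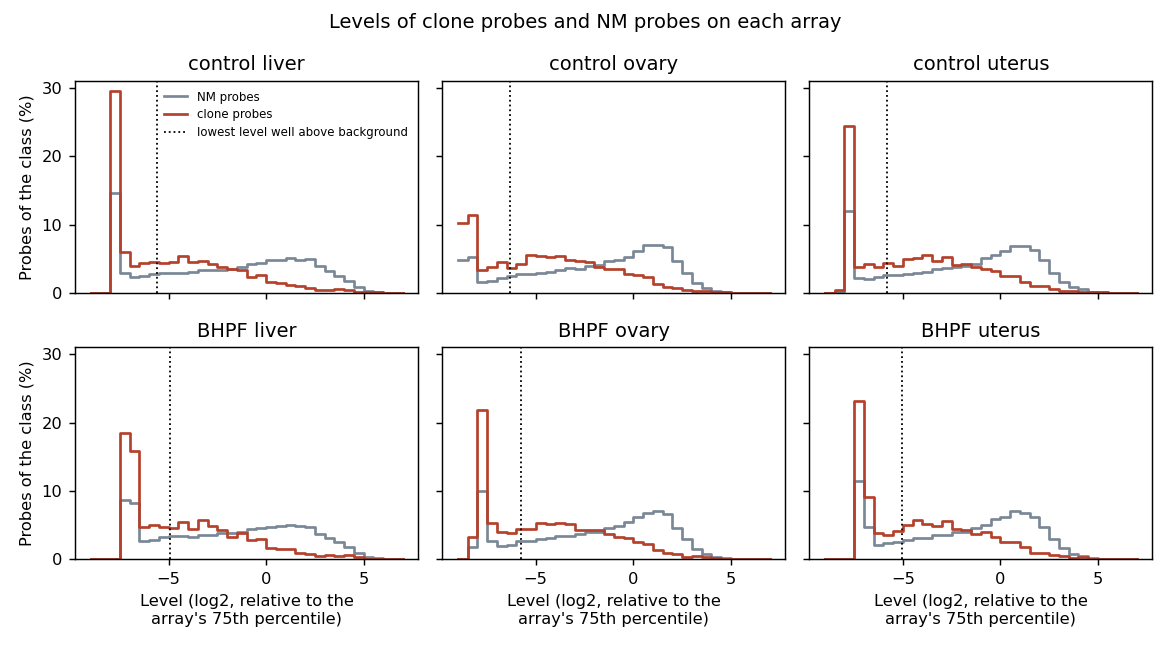
Share of probes in each step of level (x axis, log2 relative to the array's 75th percentile; y axis, percent of the class) for clone probes and NM probes, 1 panel per array, with a dotted line at the lowest level well above background. Clone probes pile up left of the line on every array, and 8.27% to 10.4% of them lay above a level of 0, against 36.6% to 37.3% of NM probes.

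Well above background on all 6 arrays were 1095 clone probes (41.4%), against 66.1% of NM probes and 54.8% of all probes. On none of the arrays were 817 (30.9%), against 13.3% of NM probes and 20.8% of all probes. Detection on both arrays of 1 tissue and on no other array was found for 19 clone probes in liver, 89 in ovary and 33 in uterus. These are 0.718%, 3.36% and 1.25% of the clone probes, and the same shares of all probes were 0.819%, 2.86% and 0.679%. A further 130 clone probes (4.91%) were detected on the 4 ovary and uterus arrays and on neither liver array, against 3.58% of NM probes and 3.87% of all probes.

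The same 3 clones were the brightest in each tissue. AK158840 had a level of 5.92 in control liver, 6.07 in BHPF liver, 5.04 in control ovary, 5.19 in BHPF ovary, 5.61 in control uterus and 5.89 in BHPF uterus. AK018458 stood at 5.81, 5.83, 4.89, 4.94, 5.17 and 5.30 in that order of arrays, and AK089156 at 5.68, 5.83, 4.63, 4.81, 5.20 and 5.51. All 3 clones were lower in ovary than in the other tissues on both arrays, and the widest difference between BHPF and control among them was 0.30.

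Differences between tissues were tested with limma on all 6 arrays, with tissue and treatment as terms, so that the control and the BHPF pool of a tissue stood as its repeats with 2 residual degrees of freedom. A probe was tested if it was well above background on both arrays of at least 1 tissue (40629 probes, 1645 of them clone probes), and was called enriched in a tissue if it was at least 4-fold above both others with an adjusted p (Benjamini-Hochberg over all probes tested) under 0.05 for each. Liver held 66 enriched clone probes (4.01% of those tested, where 5.28% of all probes were called), ovary 56 (3.40%, of all probes 3.55%) and uterus 68 (4.13%, of all probes 2.98%). Among NM probes the shares were 6.89%, 4.06% and 3.51%. Weighted to the same 10 classes of mean level as the clone probes, NM probes were enriched in 8.15% for liver, 7.80% for ovary and 6.0% for uterus, above the clone share in each tissue, and they were above it under each of the other 3 scalings tried. The difference between the classes has no test, since probes of one array are not replicates.

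Many enriched clones were seen in 1 tissue only, which leaves their difference as a bound. Both other tissues were not well above background on any array for 16 of the 66 liver clone probes, 38 of the 56 in ovary and 31 of the 68 in uterus. Among all enriched probes this held for 374 of 2146 in liver, 805 of 1443 in ovary and 316 of 1212 in uterus. The dim side was then set to the lowest detected level of its arrays, or to its own level if higher. The limma fit itself used the undetected signals as they stood, so an adjusted p printed below beside a bound does not test that bound. So set, 58 of 66, 33 of 56 and 50 of 68 were still at least 4-fold above both others. Among all enriched probes, 2003 of 2146, 1033 of 1443 and 1002 of 1212 were. The ovary count was also 34 without the BHPF uterus array and 26 with the normexp background correction, and the uterus count was 39 with that correction.

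Of the 5 liver clones with the largest differences, 3 were also detected outside liver. AK050111 had levels of 3.57 in control liver and 3.84 in BHPF liver, -5.49 and -5.58 in control and BHPF ovary, and -5.11 and -2.18 in control and BHPF uterus. It was 163-fold above uterus, the nearer tissue (log2 difference 7.35, SE 0.81, limma adjusted p = 0.0028). Its uterus arrays were far apart, the BHPF array being the higher. AK149538 had levels of 3.32 and 3.27 in control and BHPF liver, -3.88 and -3.78 in ovary and -4.39 and -3.24 in uterus, a log2 difference of 7.11 (SE 0.34, limma adjusted p = 0.00042) to the nearer tissue. AK085337 stood at 1.91 and 2.08 in liver, -5.37 and -5.15 in ovary and -5.50 and -4.90 in uterus, 147-fold above uterus, the nearer tissue, where only the control array was well above background (limma adjusted p = 0.00028). These clones were chosen for their large differences on these same arrays, so the gap between liver and the other tissues follows from the choice.

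The other 2 liver clones were not well above background outside liver. AK050221 had levels of 0.03 in control liver and 0.14 in BHPF liver and was at least 45.9-fold above both other tissues. Its limma adjusted p of 0.00028 belongs to the fitted log2 difference of 7.57, which rests on undetected signals, and the p of each bound below does likewise. AK015487 had 0.19 in control liver and -1.09 in BHPF liver and was at least 31.7-fold above both (limma adjusted p = 0.00085). AK015487 was thus a liver-restricted clone on which the 2 liver pools differed, with BHPF lower by more than 2-fold.

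The leading ovary clones were each well above background on both ovary arrays and on no other array. AK033210 had a level of 0.93 in BHPF ovary and, by a log2 ratio of -0.08, nearly the same in control ovary, and lay at least 6.23 on the log2 scale above both other tissues (limma adjusted p = 0.0014). AK033564 had -0.46 and -0.49 (at least 27.6-fold, limma adjusted p = 0.0013). AK006025 had 0.37 and 0.16 (44.0-fold above its own undetected signal in liver, the nearer tissue, limma adjusted p = 0.00078). The control and the BHPF pool lay within 0.25 of each other for all 5, while the step to the next tissue was many times that. Both features are favoured by the enriched call and by the choice of the largest differences. AK087798 had -1.58 and -1.80 (at least 11.9-fold, limma adjusted p = 0.0014), and AK013463 had -2.76 and -2.69 (at least 5.82-fold, limma adjusted p = 8e-04).

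The leading uterus clones were well above background on both uterus arrays and on no other array, with 1 exception. AK003290 had levels of -0.15 in control uterus and 0.45 in BHPF uterus (at least 42.7-fold above both others, limma adjusted p = 0.0041). AK052650 had -0.13 and -0.37 (at least 32.3-fold, limma adjusted p = 0.00077). AK048565 had -0.10 and 0.11 (at least 37.8-fold, limma adjusted p = 0.0043). AK003290 and AK048565 lost the call when either uterus array was left out, with log2 differences of 6.97 to 7.44 and 5.65 to 6.15. AK043526 had -1.54 and -2.06 (at least 3.47 above both on the log2 scale, limma adjusted p = 0.0013). The exception, AK081926, had 0.71 and 0.65 in uterus, -4.57 and -4.82 in ovary, and was not well above background in liver, which put it 41.6-fold above ovary (log2 difference 5.38, SE 0.18, limma adjusted p = 0.00077).

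**Figure D2:**
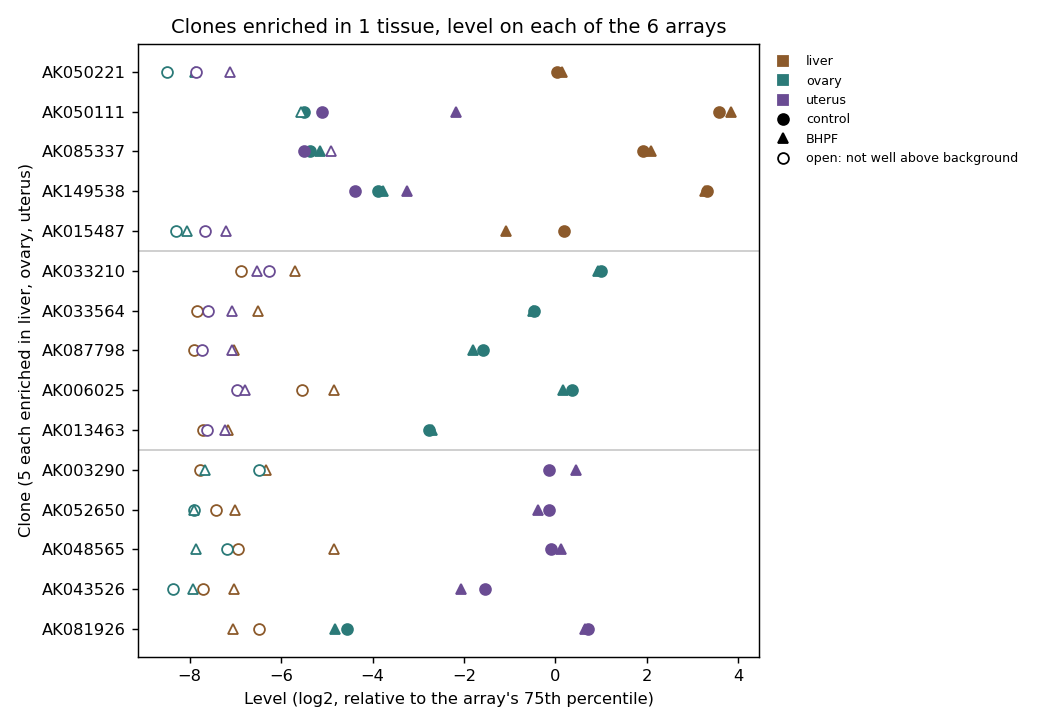
Level (x axis, log2 relative to the array's 75th percentile) of the 15 clones with the largest enrichment, 5 for each tissue (y axis), on each of the 6 arrays, 1 point per array, with open points where the probe was not well above background. In every row the 2 points of the enriched tissue lie apart from the other 4, which follows from the choice of these clones. The widest gap between control and BHPF among detected points is that of AK050111 in uterus (-5.11 and -2.18).

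Tissue differences recurred between the control pools and the BHPF pools. Over the 1095 clone probes detected on each of the 6 arrays, the log2 difference between liver and ovary on the control arrays correlated with that on the BHPF arrays with Pearson's r of 0.92, that between liver and uterus with 0.92, and that between ovary and uterus with 0.90. These are correlations across probes that share their arrays and carry no test. Of the 109 clone probes at least 4-fold apart between the control liver and ovary arrays, 83 were so on the same side on the BHPF arrays, as were 96 of 126 for liver and uterus and 28 of 39 for ovary and uterus. The range over the 3 tissues had a median of 1.03 on the control arrays and 0.99 on the BHPF arrays, against 1.16 and 1.20 for NM probes at like level. It reached 4-fold for 180 of the 1095 (16.4%) on the control arrays and 184 (16.8%) on the BHPF arrays, where 17.2% and 17.7% of all probes on which it could be measured did so, and 24.4% and 24.9% of NM probes at like level.

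BHPF was set against control in each tissue for every probe detected, by the same flag, on either array of that tissue. Where only 1 array was, the change is called a bound and was taken against the lowest detected level of the dim array. If the probe's own level there was higher, that level was used, and the bound is then the plain ratio to an undetected signal. In liver, 1389 clone probes could be evaluated. Of these 119 (8.57%) were at least 2-fold higher with BHPF, where 6.02% of all probes were, and 13 (0.936%) were at least 2-fold lower, where 1.07% of all probes were. Of the 119, 75 were measured on both arrays and 44 were bounds. The median log2 ratio of the 1217 clone probes measured on both liver arrays was 0.24, with quartiles of 0.00 and 0.53, and 74.9% of them were above 0. NM probes had a median of 0.01, and 50.8% of them were above 0.

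The liver counts and the gap between the classes moved with the scaling. Scaling to the 50th percentile lowered the median of all measured probes in liver from 0.08 to -0.24, left 70 clone probes higher and 30 lower, and brought the share of higher among the changed from 90.2% to 70.0%. Quantile normalization gave 65 higher and 27 lower, a share of 70.7%. The median of clone probes exceeded that of NM probes by 0.23 under both percentiles, by 0.22 with normexp background correction and by 0.13 with quantile normalization.

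Dim probes made up most of the liver rises, and clone probes are mostly dim. In the 4 lowest of 10 classes of mean level, 88 of 556 clone probes (15.8%) were at least 2-fold higher, against 31 of 833 (3.72%) in the 6 upper classes. The share fell from 26.6% in the lowest class to 0.719% in the highest, and that of NM probes from 22.3% to 0.0705%. NM probes weighted to the levels of the clone probes gave 5.77% higher and 2.12% lower, between the plain NM shares (3.02% and 1.51%) and the clone share on the side of the rises. The clone share was above that of NM probes in 9 of the 10 classes, and the median clone ratio was above the NM median in 9 of 10. At like level the clone share was also the higher under the other 3 scalings, at 5.04% against 3.05%, 4.68% against 2.65% and 6.34% against 4.03%. Probes named only by a chromosome interval, which on this design stand largely for candidate long noncoding RNAs, came close to the clone probes, with 9.77% of 8856 at least 2-fold higher and a median of 0.25. Every other class without an NM accession had shares above that of NM probes as well, from 7.54% of the NR probes to 10.7% of the probes named by an Ensembl transcript. What sets these classes apart from NM probes in liver was not tested, and slide position moved with treatment there as in the other tissues.

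**Figure D3:**
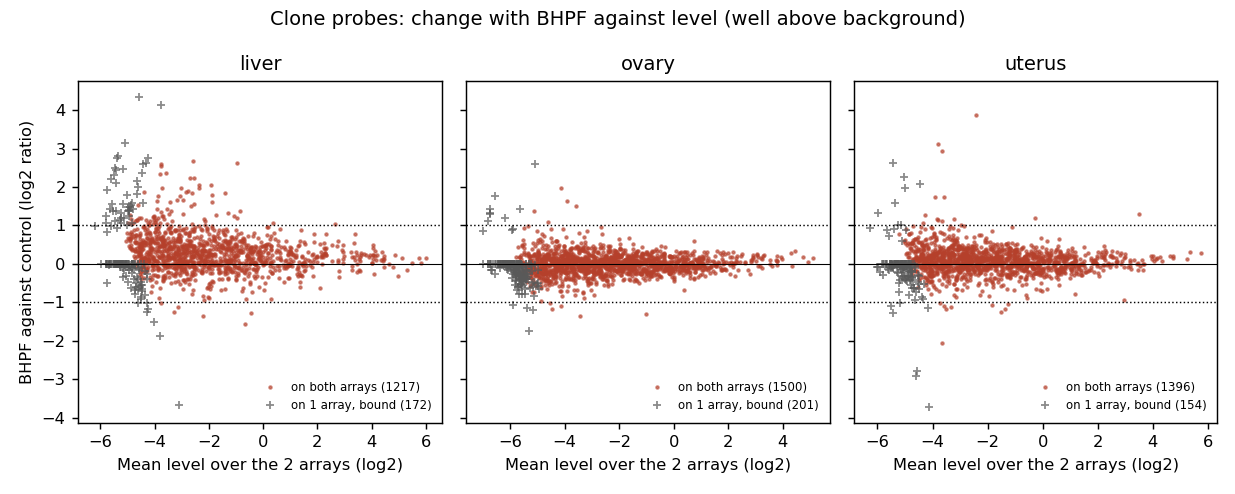
Log2 ratio of BHPF to control (y axis) against mean level over both arrays (x axis, log2 relative to the 75th percentile) for the clone probes evaluated in each tissue, 1 point per probe, with dotted lines at 2-fold and crosses for bounds. The cloud of measured points in liver is centred above 0 (median 0.24) and opens upward at low level, while those of ovary and uterus are centred at 0.01 and 0.08.

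The 5 largest liver rises measured on both arrays had levels between -5.06 and -2.27 in control liver. AK145700 rose from -3.92 in control liver to -1.25 in BHPF liver, a log2 ratio of 2.67 or 6.38-fold, and stood at -4.82 and -5.56 in ovary and -3.61 and -2.93 in uterus. AK138221 went from -2.27 to 0.35 in liver (ratio 2.62), with -2.11 and -2.26 in ovary and -1.85 and -1.79 in uterus. AK015575 went from -5.06 to -2.47 (2.59). AK145700 and AK138221 differed by less than 2-fold between control and BHPF in both other tissues. AK090034 went from -5.03 to -2.49 with 1 of its 4 probes (2.54), and AK163145 from -4.78 to -2.41 (2.37).

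Bounds reached further. AK010436, chosen after its values were seen, was not well above background in control liver and stood at -1.27 in BHPF liver, a rise of at least 20.4-fold, with no level above -5.66 in ovary or uterus. AK049221 was undetected in control liver and at -1.49 in BHPF liver, at least 17.5-fold higher. The brightest clone among the rises, AK156275, also chosen after its values were seen, went from 2.14 to 3.18 in liver (ratio 1.04) and stayed between 1.19 and 1.91 on the other 4 arrays.

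Falls in liver were few, and 3 of the 5 largest measured ones were in clones enriched in liver. AK013795 went from 0.12 in control liver to -1.45 in BHPF liver (log2 ratio -1.57), and AK172290 from -1.54 to -2.90 (-1.36). Both were detected in all tissues. AK015487 (0.19 to -1.09), AK008836 (-2.68 to -3.91) and AK039405 (-2.59 to -3.71) were the liver-enriched ones, with ratios of -1.28, -1.24 and -1.12. AK016650, chosen after its values were seen, was at -1.25 in control liver and not well above background on any other array, a fall of at least 12.7-fold. Over all 66 liver-enriched clone probes the liver ratio had a median of 0.09 and ran from -1.28 to 1.06, with 41 above 0.

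In ovary the clone probes were nearly balanced. Of 1701 evaluated, 13 (0.764%) were at least 2-fold higher with BHPF, where 0.681% of all probes were, and 9 (0.529%) were lower, where 0.593% of all probes were. NM probes at like level gave 0.982% and 1.18%. The median ratio of the 1500 measured on both arrays was 0.01, and 51.9% of them were above 0. Only 5 of the rises and 5 of the falls were measured on both arrays.

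AK083592 had the largest measured rise in ovary, from -5.14 to -3.15 (log2 ratio 1.98), and stood at -3.63 and -2.89 in uterus and below detection in liver. AK015504 went from -4.73 to -3.10 (1.63), and AK053520 from -4.31 to -2.82 (1.49). In control ovary all 3 were below their level in both uterus arrays, and the BHPF ovary array brought them near it. AK140252 (-5.83 to -4.45, ratio 1.38) and AK044286 (-5.17 to -4.07, ratio 1.10) had the same order, with uterus levels of -3.86 to -3.57 in either treatment. AK157022 had the largest measured fall, from -2.77 to -4.12 (-1.35), and its ratios in liver (-0.89) and uterus (-0.40) were negative as well. AK081077 went from -0.35 to -1.65 (-1.30), AK170661 from -3.88 to -5.05 (-1.17), AK143433 from -3.60 to -4.69 (-1.09) and AK087338 from -4.01 to -5.02 (-1.01). None of the 56 ovary-enriched clone probes changed 2-fold in ovary, where 0.681% of all probes were higher and 0.593% lower. The enriched call took the control and the BHPF ovary pool as repeats, so it disfavoured probes on which they differed.

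In uterus, 22 of 1550 evaluated clone probes (1.42%) were at least 2-fold higher with BHPF, where 1.88% of all probes were, and 16 (1.03%) were lower, where 0.773% of all probes were. The median ratio of the 1396 measured on both arrays was 0.08, and 63.5% of them were above 0. NM probes at like level were higher in 3.81%, and they exceeded the clone share in 9 of 10 level classes. Among liver-enriched probes evaluated in uterus, 295 of 1220 NM probes were at least 2-fold higher on the BHPF uterus array, against 2 of 42 clone probes. Without the liver-enriched probes of both classes, 20 of 1508 clone probes (1.33%) were higher, against 1.47% of NM probes at like level. Of the 66 clone probes enriched in liver, 7 had a mean level over 3 in liver, against 547 of the 1504 NM probes. The part of liver RNA in the gap between the classes was not tested. The liver-enriched call used the BHPF uterus array too, so probes raised there could miss the call.

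**Figure D4:**
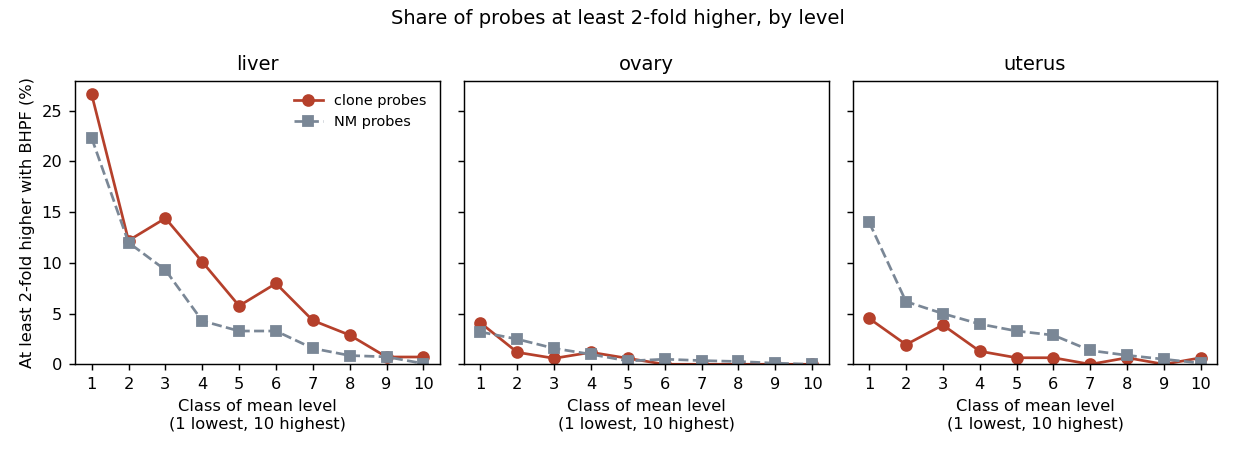
Share of probes at least 2-fold higher with BHPF (y axis, percent) in 10 classes of mean level (x axis, classes cut on the clone probes of each tissue) for clone and NM probes. In liver the clone line runs above the NM line in 9 classes and falls from 26.6% to 0.719%, in ovary both stay at or below 4.09%, and in uterus the NM line starts at 14.0% against 4.52% for clone probes.

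AK020664 had the largest uterus rise, from -4.35 on the control array to -0.47 with BHPF (log2 ratio 3.88, 14.7-fold), while in liver and ovary it stood between -5.51 and -5.25. AK007918 went from -5.36 to -2.25 (3.12), and in liver from -2.70 to -1.10. AK050111 went from -5.11 to -2.18 (2.93). AK050111 is the liver-enriched clone described above, with a level of 3.57 in control liver, and the liver markers moved in the same direction between these arrays. The part of liver RNA in these rises was not tested. AK160358 went from -4.79 to -3.05 (1.74), and on the liver arrays it was not well above background with control and stood at -3.70 with BHPF. AK052049 went from -4.44 to -2.71 (1.73) and was not well above background on either liver array. AK135063, chosen after its values were seen, was the brightest clone to rise, from 2.86 to 4.15 in uterus (1.29), against 3.75 to 4.53 on the 4 liver and ovary arrays.

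AK018484 had the largest measured fall in uterus, from -2.63 to -4.68 (log2 ratio -2.05), and the BHPF level equalled that in ovary (-4.68 and -4.70). AK172359 went from -0.90 to -2.15 (-1.25), towards its liver and ovary levels of -2.72 to -2.51. AK005235 went from -0.79 to -1.97 (-1.18), and AK044425 from -2.78 to -3.89 (-1.11). These last 2 were enriched in uterus, and the 68 clone probes enriched there had a median uterus ratio of 0.14. AK036632 went from -2.93 to -4.10 (-1.17). AK038608, chosen after its values were seen, was detected on the control uterus array alone, at -1.34, and was at least 13.3-fold lower with BHPF.

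No clone probe changed at least 2-fold in the same direction in all 3 tissues. A probe changed in all 3 is changed in each pair, and of all probes at most 0.213% changed the same way in any pair of tissues. The share of all probes changed in all 3 was not counted, so the count of 0 is not read as particular to clones. Rises in liver and uterus were shared by 6 clone probes, which is 5.04% of the liver rises and 27.3% of the uterus rises, where 0.213% of all probes evaluated in both tissues rose in both, against 0.468% of the clone probes. With the uterus arrays taken as the authors' table heads them, the count was 0. Liver and ovary shared no clone rise, nor did ovary and uterus, and the shares of all probes there were 0.0914% and 0.0534%. The 6 were AK160358, AK007918, AK049221, AK049699, AK006017 and 1 of the 2 probes for AK076616. AK049221 was the strongest, undetected on both control arrays and at -1.49 in BHPF liver and -3.41 in BHPF uterus. It was at least 17.5-fold higher in liver and, against its own undetected signal, 4.24-fold higher in uterus. AK006017 was undetected on the same arrays and at -3.00 and -4.64 with BHPF. AK049699 went from undetected to -4.10 in liver and from -3.82 to -2.66 in uterus. AK036632 was the only clone with falls in 2 tissues, with the bound of -1.75 in ovary beside the uterus value above, where 0.0987% of all probes fell in both ovary and uterus. With the uterus arrays exchanged its uterus ratio was 1.17, and AK087338 was the clone that fell in both. No clone fell in liver and in another tissue, where 0.157% of all probes fell in liver and ovary and 0.0991% in liver and uterus.

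The 119 liver rises were then followed on the arrays of the other tissues, which had no part in choosing them. In ovary 78 of them were measured on both arrays, with a median log2 ratio of 0.00 and 50.0% above 0, against 0.02 and 53.7% for the other clone probes evaluated in liver. In uterus 83 were measured, with a median of 0.18 and 81.9% above 0, against 0.07 and 62.4%. With the uterus arrays exchanged the median was -0.18 and 18.1% were above 0. None of the 78 in ovary and 4 of the 83 in uterus rose 2-fold, against 3 of 1166 and 6 of 1121 of the other clone probes. Of all probes measured on both arrays, 156 of 38351 in ovary and 353 of 35518 in uterus did. These sets were not matched for level. Slide position went with treatment in every tissue, and its part was not tested.

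Clones with several probes gave repeated readings for one accession. Of the 38 such clones, 22 had every probe detected on some array, 7 had some and 9 had none. Levels of the probes of one clone could lie far apart: the 3 probes for AK139675 stood at 1.75, -1.03 and -4.67 in control liver. Of the 14 clones with 2 or more probes measured on both liver arrays, 11 had all ratios on one side of 0. The median distance between the highest and the lowest ratio of a clone was 0.42. Of all clone probes measured on both liver arrays, 74.9% were above 0, with quartiles of -0.002 and 0.53. Like signs are therefore common among probes of different clones too, and agreement within clones was not compared with such probes.

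AK090034, the clone with the most probes, rose with all 4 in liver, by log2 ratios of 2.54, 1.97, 1.91 and 1.84, from control levels of -5.03, -4.02, -3.74 and -3.53. The same probes ran from -0.50 to 0.12 in ovary and from 0.35 to 0.72 in uterus. Both probes for AK076616 rose in liver (2.23 and 2.05), and in uterus they gave 0.68 and 1.01. AK167004 gave 1.64, 0.91 and 0.89 in liver with 3 probes whose control levels were -4.75, 0.18 and -1.94, the dimmest probe having the largest ratio. AK133183, also with 3 probes, gave 0.90 with its detected probe, at least 1.38 with a second that was detected with BHPF only, and no value with the last, which was seen in ovary only. The probes for AK139675 gave -0.03, 0.24 and 0.57 in the order of levels above, and neither probe for AK006305 was well above background on any array.

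**Figure D5:**
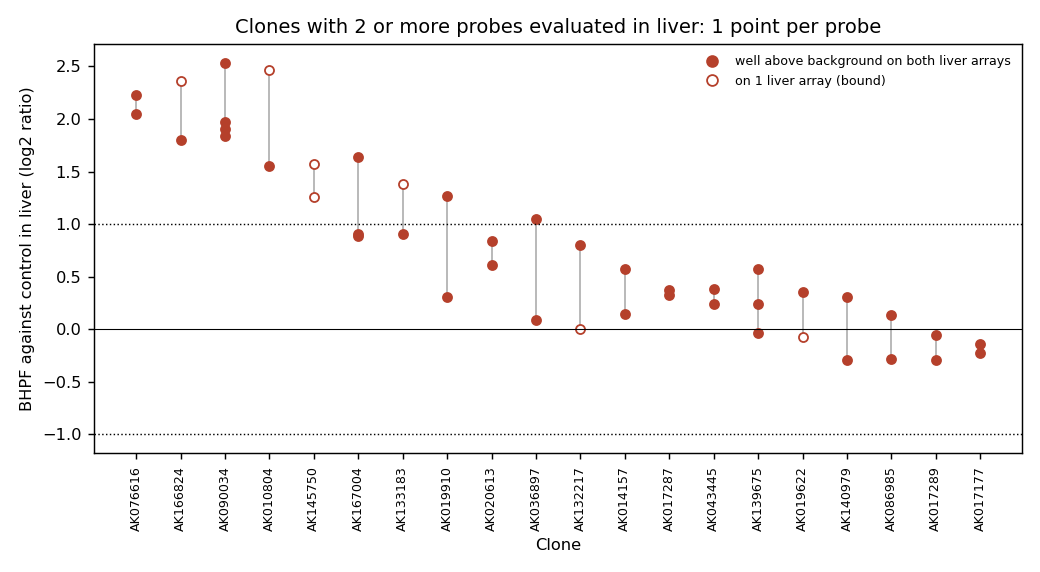
Log2 ratio of BHPF to control in liver (y axis) for each clone with at least 2 probes evaluated there (x axis), 1 point per probe, joined by a line, with open points for bounds and dotted lines at 2-fold. All probes lie above 2-fold for AK076616, AK166824, AK090034, AK010804 and AK145750, and none lies below the lower line.

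A difference shared by the 3 tissues was tested in the same limma fit. It treats the tissues of a treatment as independent, although their pools may come from the same 3 mice. After adjustment no clone probe passed among 1645, and none of the 40629 probes did (0% of all probes in either direction, lowest adjusted p 0.714 over all probes and 0.739 over the clone probes). At an unadjusted limma p under 0.05, 89 clone probes (5.41%) were higher with BHPF, where 4.33% of all probes were, and 30 (1.82%) were lower, where 1.47% of all probes were. The count after adjustment was also 0 under each alternative run, the fits that left out 1 array included.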

How the data were processed

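Total RNA pools were hybridised to 1-colour Agilent SurePrint G3 mouse arrays. The authors deposited, per array, the scanner output of Agilent Feature Extraction (11.5.1.1 per the file headers, 9.1 per the processing notes) with processed, median and background intensity and detection flags, and a table of log2 values that the authors had shifted by percentile in GeneSpring, in which the uterus columns hold each other's array. Its columns are centred at medians of -1.66 to -1.17 and were used as an alternative only, each matched to the array whose values it holds. Arrays carry no read depth, and their number limits the precision.

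Control spots and outlier spots (24 for clone probes) were left out, spots of a probe averaged, and log2 processed intensity was shifted to the 75th percentile. Saturation affected 0 clone probes. Tissue and treatment were fitted with limma 3.58.1 in R 4.3.3 over all 40629 probes tested, with Benjamini-Hochberg adjustment at 0.05. Control and BHPF pools are separate animals. The sources give 3 mice per group, so the liver, ovary and uterus pools of a treatment may share their mice, which the fit does not model. With 1 array per group there is no replicate error within a tissue. Arrays that differ in treatment served as repeats of a tissue. Functions were tested on simulated data.

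The members, lists and rules were chosen with earlier results of these data known. The text names the 3 brightest clones per tissue, the 5 most enriched, the 5 largest measured rises and falls, any clone changed in all 3 tissues and the 5 clones with the most probes (ties by accession), and marks those chosen after their values were seen. The planned comparisons with clone library sources and with NM probes of the same gene name were not run, since the tables used here pair no clone with either. Classes of level divide the clone probes by mean level into 10 of like size. Alternatives were the 50th percentile, quantile normalization, normexp with an offset of 50, the authors' table, other filters on dim probes, 1 value per clone, no treatment term and leaving out each array.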

Additional observations from a re-analysis of the deposited data

Results flagged for a closer look

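In 3 clones BHPF and control differed at least 2-fold in opposite directions in 2 tissues. With 1 array per group this difference between tissues was not tested. Of all probes evaluated in ovary and uterus, 0.0293% were lower in ovary and higher in uterus, against 0.0678% of the clone probes. The share of all probes with opposite changes in liver and ovary was not counted, so the 3 are not read as particular to clones. AK087338 was lower in ovary (log2 ratio -1.01, from -4.01 to -5.02) and higher in uterus (1.26, from -4.92 to -3.65). With the uterus arrays exchanged, as the authors' table heads them, its uterus ratio was -1.26, the same direction as in ovary. AK016158 was higher in liver (2.24, from -3.68 to -1.44) and lower in ovary, where it was not well above background with BHPF and the fall is a bound (-1.07). AK007033 had the same pattern, higher in liver (1.88, from -3.80 to -1.91) and lower in ovary by a bound (-1.14). Both were above 0 in uterus with the arrays as labelled, at 0.46 and 0.42.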

How the results depend on the processing

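Scaling to the 50th percentile left 70 clone probes higher and 30 lower in liver, and quantile normalization 65 and 27. Normexp background correction gave 6 lower in liver, 4 lower in ovary, 26 enriched in ovary and 39 enriched in uterus. With detection required on both arrays there were 75 higher and 6 lower in liver, 5 higher and 5 lower in ovary, and 14 higher and 9 lower in uterus. With no filter on dim probes there were 405 and 45 in liver, 40 and 61 in ovary, and 102 and 50 in uterus, the added probes having no detected signal on either array. Own signals in place of bounds gave 28 lower in liver, 30 in ovary and 30 in uterus, as did the authors' table (28, 30 and 30), and the uterus columns of that table as headed gave 26 lower. Bounds in place of own signals, added after the data were seen, gave 33 enriched in ovary. Leaving out each array in turn gave 60 to 79 enriched in liver, 34 to 62 in ovary (34 without the BHPF uterus array), 48 to 75 in uterus, and 0 in either direction for the shared effect. The other counts stayed within 1.5 times the main one. Scaling to the 50th percentile lowered every liver ratio by the same amount, taking the clone median from 0.24 to -0.08. Small positive liver ratios of named clones, such as that of AK018458 (0.02), therefore turned negative. No named change of at least 2-fold changed sign under these alternatives, with 1 exception. Exchanging the uterus arrays, added after the data were seen, turns every uterus ratio: AK087338 to -1.26, AK036632 to 1.17 and the median of the liver rises in uterus to -0.18. Normexp took the fall of AK087338 in ovary to -0.48 and that of AK170661 to -0.34. Beyond the settings named, the cause was not tested. No paired analysis was possible because each group is 1 array and the replicate numbers only name it. All arrays share 1 slide, so no slide block could be fitted. Dim clones limit most of these counts: 817 clone probes were not well above background on any array, for which no change could be measured.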

Other observations

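Accession numbers of the clones fell into 4 long runs, separated by gaps of more than 5000 numbers, beside 9 clone probes outside them. From AK002255 to AK021396 there were 832 probes, from AK027968 to AK054493 744, from AK075572 to AK090337 399 and from AK129162 to AK173258 663. The share well above background on at least 1 array was 62.7% in the first run and 71.9%, 74.7% and 70.4% in the others. Of the probes tested between tissues, 12.9%, 14.0%, 9.70% and 8.45% were enriched in 1 tissue, where of all probes 5.28% were enriched in liver, 3.55% in ovary and 2.98% in uterus. The share at least 2-fold higher with BHPF in liver was 9.11%, 6.39%, 8.18% and 10.4%, where 6.02% of all probes were. These are values with no test.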
